A study of Mus musculus with 3 samples.

Results

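The His-bundle-like Pvalb Myl2 cells described here were 66 heart muscle cells found among cells sorted for a pacemaker reporter in newborn mice. They were taken from the GFP-positive library in steps. Of its 3346 barcodes, 3300 had at least 500 genes, and 170 of those were counted as cardiomyocytes because Tnnt2, Myh6, Actc1, Tnni3 and Myl7 together made up at least 2% of their UMIs, the counted RNA molecules. The 66 chosen by Pvalb and Myl2, with at least 10 UMIs of them together, form the group (38.8% of the 170, exact Clopper-Pearson 95% interval 31.5% to 46.6%), and the other 104 are the cells they are set against. Both groups therefore come from the same sort and library, but the cells cannot be assigned to single animals. Because Pvalb and Myl2 chose the cells, and every other gene was read in those same cells, every difference between these groups is a description, with no test and no p-value.

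All libraries came from ICR mice at postnatal day 2 with the genotype HCN4H2BGFP, a reporter read from the pacemaker channel gene Hcn4. The GFP-positive and GFP-negative libraries held cells sorted by flow cytometry, and the third was unsorted. That library is named RA, while its tissue label, like that of the other two, is the sinoatrial node region, so it is called RA here. Each group had 1 library and thus no replicates, and the labels do not give the number of animals. The GFP-positive cardiomyocytes included cells with Xist and cells with Y-linked RNA, so animals of both sexes were pooled in it.

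The conduction system of the heart starts each beat in the sinoatrial node and carries it through the atrioventricular node and the His bundle to the ventricles. Pacemaker cells of the node are known for the channel HCN4, the factors Shox2, Tbx3, Tbx18 and Isl1 and slow conduction, while cells of the His bundle and its branches conduct fast and are known for the connexin gene Gja5, the adhesion gene Cntn2 and the factors Etv1, Nkx2-5 and Tbx5. Pvalb encodes parvalbumin, a calcium buffer best known from fast skeletal muscle and from neurons, and Myl2 encodes the regulatory myosin light chain of ventricular muscle. Chit1 encodes the chitin-cleaving enzyme chitotriosidase, and Calca encodes calcitonin and the vasodilator peptide CGRP.

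The promoters of 4 genes are shown. Pvalb helped to choose the cells, and the summed RNA of Chit1, Calca and Cntn2 was higher in the group. The promoters are RefSeq sequences of GRCm38.p6 running from 250 bases before to 50 bases after the gene start. The capitals mark matches, on either strand, to 3 short motifs of cardiac factor families.
Pvalb, chr15:78206351-78206650, minus strand, the more upstream of 2 starts: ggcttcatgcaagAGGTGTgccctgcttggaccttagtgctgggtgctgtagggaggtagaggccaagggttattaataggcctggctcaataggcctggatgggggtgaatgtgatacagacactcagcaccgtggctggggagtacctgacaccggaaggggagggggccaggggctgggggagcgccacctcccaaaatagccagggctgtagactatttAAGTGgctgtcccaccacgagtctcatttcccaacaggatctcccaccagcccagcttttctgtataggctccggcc
Chit1, chr1:134110992-134111291, plus strand: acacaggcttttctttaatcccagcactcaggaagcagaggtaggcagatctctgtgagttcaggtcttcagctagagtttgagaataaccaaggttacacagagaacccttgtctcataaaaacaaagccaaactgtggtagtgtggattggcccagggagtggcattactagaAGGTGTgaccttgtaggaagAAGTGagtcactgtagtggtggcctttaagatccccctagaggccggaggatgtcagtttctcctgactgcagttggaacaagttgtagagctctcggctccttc
Calca, chr7:114636308-114636607, minus strand: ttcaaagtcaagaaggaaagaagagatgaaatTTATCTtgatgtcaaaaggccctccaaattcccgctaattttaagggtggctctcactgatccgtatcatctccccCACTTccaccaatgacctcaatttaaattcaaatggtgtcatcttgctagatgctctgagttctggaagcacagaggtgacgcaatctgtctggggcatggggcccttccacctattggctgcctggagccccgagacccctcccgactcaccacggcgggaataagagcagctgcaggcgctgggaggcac
Cntn2, chr1:132542891-132543190, minus strand: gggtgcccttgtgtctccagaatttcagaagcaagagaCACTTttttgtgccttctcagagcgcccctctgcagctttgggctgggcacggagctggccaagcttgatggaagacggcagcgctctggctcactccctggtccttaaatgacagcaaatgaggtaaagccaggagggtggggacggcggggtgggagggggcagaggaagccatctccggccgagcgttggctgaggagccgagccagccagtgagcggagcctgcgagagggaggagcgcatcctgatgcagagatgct

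The first motif was AGGTGT, which is a half-site for T-box factors. The second was AAGTG, which is the core of the site for NKX2-5. The third was AGATAA, which is a site for GATA factors. A match on the minus strand appears in capitals as the reverse complement. The Pvalb and Chit1 windows each held a T-box and an NKX2-5 match, the Calca window an NKX2-5 and a GATA match, and the Cntn2 window an NKX2-5 match. No matches overlapped in these windows. Of all 32851 promoters in the table, 13.7% held the T-box half-site, 46.4% the NKX2-5 core and 11.2% the GATA site. Among the 15 most elevated genes named below, 13 had a promoter there, and 3, 9 and 1 of those held the motifs in the same order. A match is a short run of letters and says nothing of binding.

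The cells differed widely in the pair of genes that chose them. Pvalb ran from 0 to 123 UMIs per cell, with a median of 19, and Myl2 from 0 to 303, with a median of 14.5. In the other cardiomyocytes the medians were 0, with highest values of 9 and 5. Of the 66 cells, 49 had both RNAs, 13 had Pvalb alone and 4 had Myl2 alone. Summed over the group, Pvalb stood at 1749 CPM (counts-per-million, the UMIs of a gene scaled to a fixed total), and Myl2 at 1517 CPM, and these levels follow from the choice. The cut did not fall in an empty range, since 6 cells had 10 to 14 UMIs of the pair and 14 cells lay just under it with 5 to 9. Chit1 was at 162 CPM in those 6 cells and at 28.7 CPM in those 14, but was read in 3 cells on each side. Calca went the other way (73.7 and 98.7 CPM). Cntn2 was at 14.7 and 9.55 CPM, and Shox2 was nearly level (486 and 490.3 CPM).

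**Figure D1:**
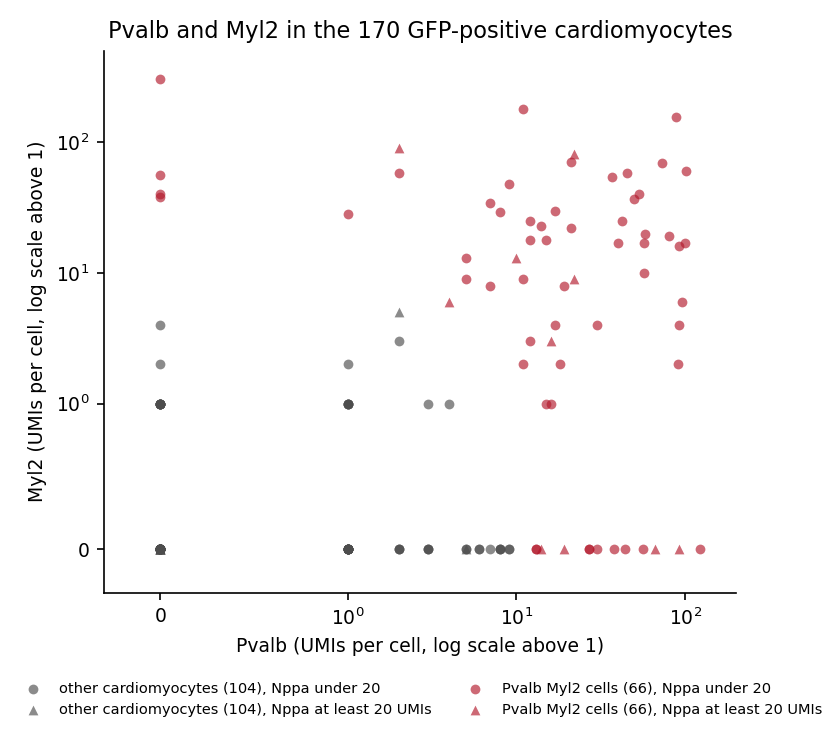
UMIs of Pvalb (x axis) and Myl2 (y axis) in each of the 170 GFP-positive cardiomyocytes, on axes that are linear up to 1 UMI and logarithmic above it. Red points are the 66 Pvalb Myl2 cells and dark points the other 104, and triangles have at least 20 UMIs of Nppa. Most red cells lie off both axes (49 have both RNAs), 13 lie on the lower edge with Pvalb alone and 4 on the left edge with Myl2 alone.

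Median depth and median mitochondrial share were close in both groups. The Pvalb Myl2 cells had 6342 to 38607 UMIs (median 17730.5) and the other cardiomyocytes 5139 to 40054 (median 20200), so the group as a whole was not deeper. Its cells with 10 to 29 UMIs of the pair had a median of 21887 UMIs. Those with 30 to 59 had 15183 and those with 60 or more 17465.5. Whether the UMI minimum favoured deeper cells near the cut was not tested. Median mitochondrial shares were 10.9% and 10.7%, while the highest were 21.0% in the Pvalb Myl2 cells and 58.0% in the others. The 12 genes of the dissociation response, such as Fos (1131 against 882 CPM), had a median log2 ratio of 0.19 with none called. The summed UMIs, 1260844 and 2152662, gave 10849 genes with at least 10 UMIs in both groups together. A gene was called where its log2 ratio, with 0.5 UMIs added to each sum, was at least 1 in size and its 95% interval left out equality. The median over all genes was 0.05. Higher calls numbered 338 (3.12% of the genes) and lower calls 310 (2.86%), and these shares are the background for the lists. The group was chosen within this contrast, so the calls support no more than the description. Intervals cover counting error only, and not the spread between cells or animals.

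Genes known from the His bundle were called higher or lay between. Of 12 measured members of a list of 14, 6 were called higher, none was called lower and 6 lay between, and the list median was 1.27 on the log2 scale. Cntn2, which encodes a cell adhesion protein of the conduction system and of myelinated axons, stood at 56.3 (43.98 to 71.03) CPM against 10.2 (6.40 to 15.5). It ran from 0 to 9 UMIs per cell against 0 to 4, and was read in 29 of the 66 cells and in 13 of the other 104. The groups overlapped, since most Pvalb Myl2 cells had no Cntn2 UMI. Thinned to 5000 UMIs per cell, the shares of cells with Cntn2 were 16.7% and 5.77%. Etv1, a factor of fast-conducting heart cells, was at 73.8 against 12.5 CPM, a log2 ratio of 2.54, interval 1.92 to 3.23. Sema3a, an axon guidance signal, was at 23.0 CPM against 3 UMIs (log2 3.85, interval 2.35 to 6.40). Scn10a, a sodium channel gene best known from sensory neurons (12.7 against 4.18 CPM), and Slit2, another guidance signal (13.5 against 2.32 CPM), were also higher, both at low level, and Slit2 was read in only 7.58% of the cells.

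Several defining genes of the His bundle did not set the cells apart. Gja5, the connexin of fast conduction, was at 75.3 (60.96 to 92.1) against 62.7 (52.6 to 74.2) CPM, a log2 ratio of 0.27, interval -0.13 to 0.65. Id2, a factor needed for the bundle, was nearly level (609.9 against 543 CPM), as was the potassium channel subunit gene Kcne1 (58.7 against 54.8 CPM). Tbx5 stood at 93.6 against 132 CPM. Nkx2-5 was at 274 against 155 CPM and Hopx at 188 against 95.7 CPM, both with a log2 ratio under 1 (0.82 and 0.97). Irx3 and Gjd3, also known from this tissue, had too few UMIs to be measured. The name His-bundle-like therefore rests on Cntn2, Etv1 and the other members called higher and not on the whole list, and no location in the heart comes with the counts. Cntn2 was already known as a marker of the group when the list was made, so its call is no separate support for the name.

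Pacemaker genes were split. Of 17 measured members of a list of 18, 5 were called higher, 3 lower and 9 lay between, with a median log2 ratio of 0.34. Shox2, a homeobox factor of the sinoatrial node, stood at 686 (641 to 733) CPM against 294 (271 to 317), a ratio of 2.34 (log2 1.22, interval 1.07 to 1.37). Its UMIs per cell ran from 0 to 55 with a median of 11.5, against 0 to 26 with a median of 5, and all but 2 of the 66 cells had at least 1. The groups overlap over most of this range. The matricellular gene Smoc2 (420.4 against 175 CPM), the calcium channel gene Cacna1d (61.9 against 27.4 CPM), Cpne5 (279.97 against 132 CPM) and the neuronal adhesion gene Ntm (306 against 95.7 CPM) were the other higher members. The log2 ratio of Smoc2 was 0.37 when Pvalb alone chose the cells, which ends its call.

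Tbx18, a factor of the head of the node, Isl1, a factor of its progenitors, and the signal gene Bmp4 were the lower members. Tbx18 had 7 UMIs in the 66 cells, 5.55 CPM against 47.8 CPM (log2 -3.01, interval -4.46 to -2.01), with 1 UMI at most in a cell against 14 in the others. Isl1 stood at 4.76 against 12.1 CPM and Bmp4 at 15.9 against 43.2 CPM. Tbx3, shared by the node and the conduction axis, lay between at 50.8 against 78.5 CPM. The pacemaker channel gene Hcn4 was not called. It was at 8.72 (4.36 to 15.6) CPM against 6.97 (3.90 to 11.5) (log2 0.34, interval -0.94 to 1.54), too few UMIs to place it. The GFP feature, the reporter itself, was at 136 (116 to 158) CPM against 123 (108 to 138), and it was read in 81.8% of the Pvalb Myl2 cells and 56.7% of the others (43.9% and 28.8% when thinned to 5000 UMIs per cell). Hcn2 had a single UMI in the 170 cells and was not measured.

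**Figure D2:**
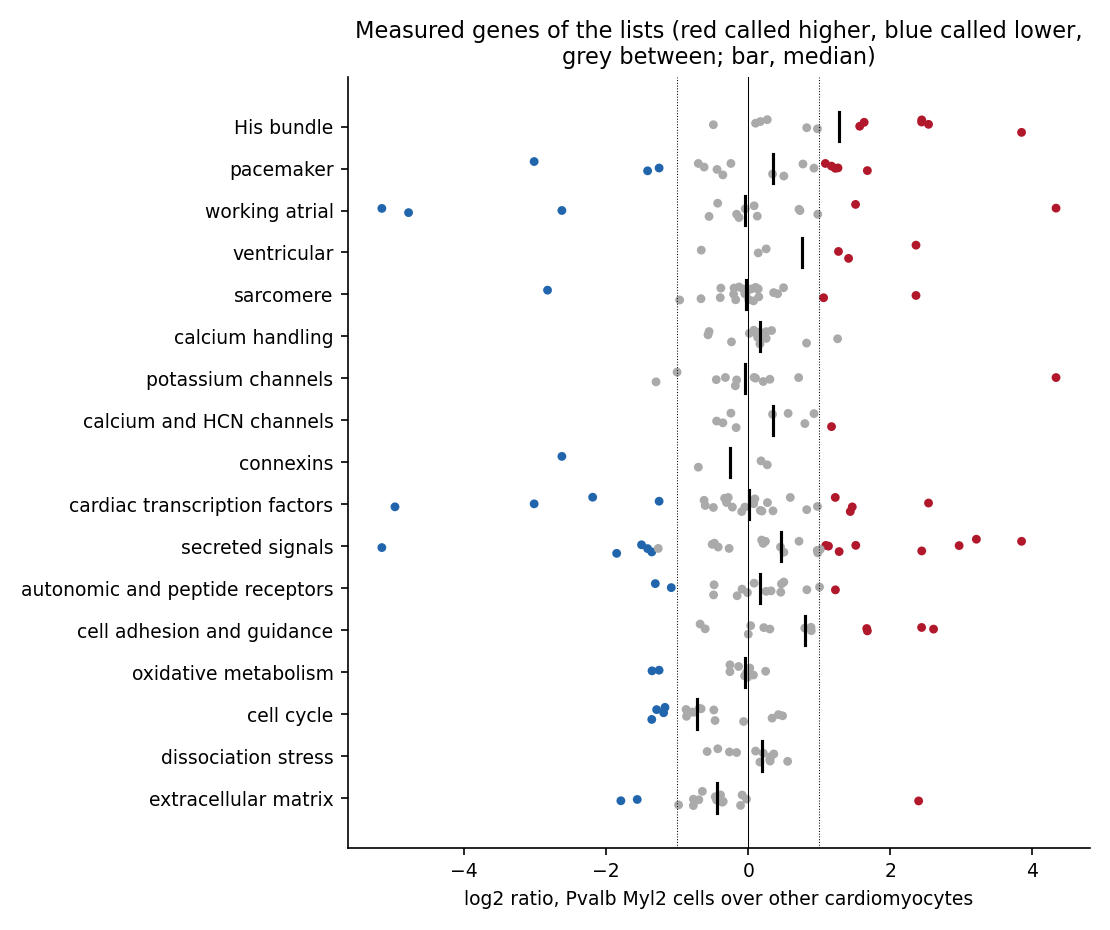
Log2 ratio of each measured gene of 17 lists, Pvalb Myl2 cells over the other cardiomyocytes of the library (x axis), by gene list (rows). Red points were called higher, blue lower and grey neither, dotted lines mark ratios of -1 and 1, and bars are list medians. The His bundle list (median 1.27) lies to the right, and the working atrial list (median -0.04) spreads to both sides.

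Ventricular light chains and other muscle proteins gave a mixed picture. In the ventricular list 3 of 6 measured genes were called higher and none lower (median 0.76), but Irx4 and Hey2, factors of the ventricular wall, had too few UMIs to be measured. Myl3, the essential light chain of ventricular and slow muscle, was at 826 against 161 CPM (log2 2.36, interval 2.19 to 2.54). Its spread was wide, from 0 to 159 UMIs per cell with a median of 2, against 0 to 84 with a median of 0. The log2 ratio of Myl3 was 2.82 in the male cells alone and -0.20 in the female cells alone. Myoglobin (Mb, 174 against 65.5 CPM) drew 26.4% of its UMIs from a single cell, and its log2 ratio of 1.41 was 1.71 in female and -0.57 in male cells. When cells were chosen by Pvalb alone, at 5 UMIs, the log2 ratios of Myl3 and Mb were 0.20 and 0.25, and neither was called. Lbh, a regulator of heart development, was at 404 against 168 CPM, and the slow myosin gene Myh7 was level (266 against 242 CPM). Of 25 measured sarcomere genes, 2 were called higher (Myl3 among them), 1 lower (skeletal actin, Acta1, 10.3 against 75.7 CPM) and 22 lay between. The atrial light chain Myl4 stood at 12185 against 11165 CPM, so atrial light chain RNA was present beside Myl2.

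Working atrial genes were balanced as a list (median log2 ratio -0.04; 2 of 15 higher, 3 lower). Gja1, the connexin of working muscle, was at 6.34 against 41.3 CPM (log2 -2.62, interval -3.96 to -1.66), with 8 UMIs in all 66 cells. Bmp10 and Angpt1 had 0 UMIs in the group against 30 and 23 in the others, at least 5.86-fold and 4.49-fold lower when the group is put at a floor of 3 UMIs. Bmp10 was read in 2 of the other cells, 1 of which had 5 to 9 UMIs of Pvalb and Myl2, and its log2 ratio became 0.41 when 5 UMIs of the pair were enough. Stard10, a lipid transfer gene, was higher at 1217 against 427 CPM, with a median of 20 UMIs per cell against 7. Kcna5, the ultra-rapid potassium channel of the atria, was at 23.0 CPM against 2 UMIs (log2 4.33, interval 2.65 to 7.74). Nppa, the atrial natriuretic peptide gene, had a median of 0 UMIs per cell in both groups and came from few cells, as described below.

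Among the ion channel genes, Scn7a, a channel that senses sodium, was called higher (16.7 against 6.50 CPM), as was Fgf13, an intracellular partner that tunes sodium channels (48.4 against 15.8 CPM). Potassium channel genes had 1 of 12 higher, Kcna5, and calcium and HCN channel genes 1 of 9, Cacna1d. The L-type gene Cacna1c was at 47.6 against 27.4 CPM and the T-type gene Cacna1g at 50.8 against 60.4 CPM, both between. Of 16 measured calcium handling genes none passed in either direction, although the release channel gene Ryr2 was at 458 against 259 CPM and the pump gene Atp2a2 at 1973 against 2924 CPM.

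Cardiac transcription factors were called higher in 4 of 26 measured cases and lower in 4 (median 0.01). Beside Shox2 and Etv1, the higher ones were Tbx2, a repressor that keeps chamber muscle genes off (24.6 against 8.83 CPM), and Meis2 (55.5 against 20.4 CPM). Tbx20, a regulator of chamber muscle, was read in 34.8% of the cells against 79.8% (18.2% and 54.8% when thinned) and stood at 44.4 against 204 CPM (log2 -2.19, interval -2.63 to -1.80). The general cardiac factors Gata4 (77.7 against 64.6 CPM) and Gata6 (182 against 170.5 CPM) were close to level.

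The list of secreted signals held Calca and also Chit1, an enzyme gene. Of 27 measured genes 8 were called higher and 5 lower (median 0.45). Chit1 and Calca were among the 8, and both were known as markers of the group when the list was made. Chit1 was at 324 (294 to 357) CPM against 34.8 (27.4 to 43.7) (log2 3.21, interval 2.86 to 3.59), ran from 0 to 36 UMIs per cell with a median of 3, and had a median of 0 and a highest value of 11 in the others. Calca was at 339 (308 to 373) CPM against 43.2 (34.9 to 52.9) (log2 2.97, interval 2.65 to 3.31), with 0 to 31 UMIs per cell and a median of 5 against 0 to 12 and a median of 0. As shares, 46 and 51 of the 66 cells had a UMI of Chit1 and of Calca, against 26 of 104 for each. Thinned to 5000 UMIs per cell, Chit1 was read in 51.5% of the Pvalb Myl2 cells, 8.65% of the others and 1.01% of the endothelial cells of the same library, and Calca in 59.1%, 15.4% and 1.33%. No cell was lost to thinning in either cardiomyocyte group, and 55 of 2916 endothelial cells were; their median depth was 12316.5 UMIs. Adrenomedullin, a peptide of the same family as CGRP (Adm, 211 against 86.9 CPM), and Bmp7 (86.5 against 30.2 CPM) were higher too, while endothelin (Edn1, 9.52 against 27.9 CPM) and the iron hormone gene Hamp (39.7 against 144 CPM) were lower. With 5 UMIs of Pvalb and Myl2 enough to join the group, the log2 ratio of Edn1 was -0.26 and it was not called. The receptor parts for CGRP were not called: Calcrl was at 29.3 against 27.9 CPM and Ramp1 at 360.1 against 402 CPM. Of 16 measured receptor and signalling genes 1 was higher and 2 were lower. Among 13 measured adhesion and guidance genes 4 were higher and none lower, namely Cntn2, Ntm, the ephrin receptor gene Ephb3 (68.2 against 21.4 CPM) and the Slit receptor gene Robo2, at 9.52 CPM against 3 UMIs.

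**Figure D3:**
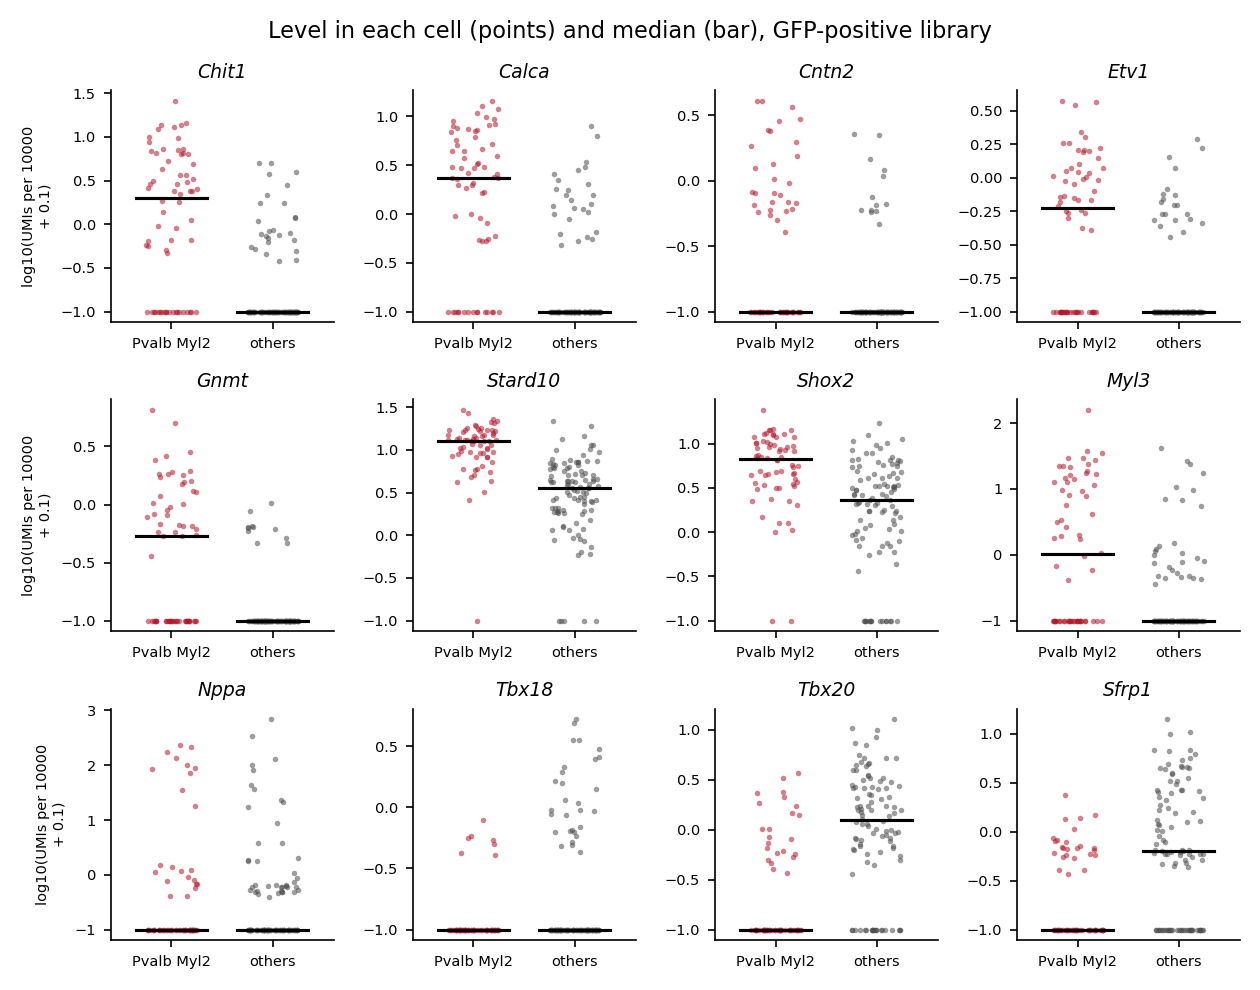
Level of 12 genes in each of the 66 Pvalb Myl2 cells (red) and the 104 other cardiomyocytes (grey), as log10 of UMIs per 10000 plus 0.1 (y axes differ between panels); bars are medians, and points at -1 had no UMI. Chit1 and Calca medians lie above 0 in the red group alone, Shox2 is read in nearly all cells of both, and Tbx18 has at most 1 UMI in any red cell.

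A rule on size picked further genes without regard to function, from 75 higher and 25 lower genes that reached 50 CPM and 20% of the cells in their higher group. The highest was Gnmt, a methyltransferase gene best known from liver, at 70.6 against 6.04 CPM (log2 3.50, interval 2.70 to 4.51), read in 53.03% against 10.6% of the cells (24.2% and 2.88% when thinned). Cckar, the receptor gene for cholecystokinin, followed at 51.6 against 4.65 CPM, and 70% of its UMIs in the other cardiomyocytes lay in a single cell. The DNA repair gene Mgmt (296 against 62.2 CPM) and Ascc1 (247 against 55.3 CPM) were read in 93.9% and 84.8% of the Pvalb Myl2 cells. Myoz1, a Z-disc gene of fast skeletal muscle, was at 65.04 against 17.7 CPM. Chit1, Calca, Etv1, Cntn2 and Myl3 were also among these 15, with Gstt1, Podn, Smyd2, Sbk3 and Adgrb2, whose log2 ratios ran from 1.98 to 2.64.

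Of the 10 lowest genes, Pum3 (14.3 against 107 CPM), the Wnt inhibitor gene Sfrp1 (30.1 against 167 CPM) and Tbx20 were spread over many of the other cardiomyocytes, with 16.1% of the Pum3 UMIs in the cell that had most. Others leaned on few cells. A single cell among the 104 held 38.5% of the Tagln and 21.3% of the Acta2 UMIs, both genes of smooth muscle. Acta2 stood at 182 against 657 CPM and Tagln at 38.1 against 190.5 CPM. Dsp (30.1 against 109 CPM), Fhl1, Col1a1, Postn and Hamp completed the set. Fabp3, the muscle fatty acid carrier, was among the abundant genes that were lower, at 811 against 1937 CPM, in a list of oxidative genes where 2 of 12 were lower and 10 between. Cell cycle genes had 4 of 16 lower (Top2a, Ccnb1, Cenpf and Ube2c), but these 4 turned to higher, with log2 ratios of 0.39 to 0.96, when 5 UMIs of the pair were enough to join the group.

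Markers of other cell types are given as sums over whole lists. The 8 endothelial markers summed to 391 CPM in the Pvalb Myl2 cells and 491 CPM in the others, the 8 fibroblast markers to 310.1 and 525 CPM, with Tcf21 at 0 UMIs, and the 8 epicardial markers to 139 and 124 CPM. The 8 smooth muscle or pericyte markers summed to 238 and 884 CPM, with Myh11 and Notch3 at 0 UMIs in the Pvalb Myl2 cells, and 5 of the 6 measured ones were lower. Per 10000 UMIs this sum ran from 0 to 25.6 in single Pvalb Myl2 cells (median 0.595) and from 0 to 226 in the others (median 0.465). The 6 glial markers summed to 3.17 CPM in the Pvalb Myl2 cells and 6.04 CPM in the others and the 8 neuronal markers to 24.6 and 32.5 CPM, with Sox10, Prph and Tubb3 at 0 in the Pvalb Myl2 cells. The 8 macrophage markers summed to 24.6 and 39.95 CPM, the 7 of other leukocytes to 0.793 and 5.57 CPM and the 6 erythroid markers to 44.4 and 53.4 CPM. Without cells that had over 1% of their UMIs in another type's markers, the log2 ratio of Tagln went from -2.31 to -1.62 and that of Acta2 from -1.85 to -1.52. The part of other cells' RNA in the remaining lower calls was not tested. The 12 skeletal muscle markers summed to 827 CPM against 1214 CPM, lower in the Pvalb Myl2 cells, and Ckm, a creatine kinase gene that heart muscle also uses, made up 753 and 1114 CPM of these sums. Myod1, Myog, Actn3, Tnnc2 and Myh3 had 0 UMIs there. Of the 6 measured ones 1 was lower, Acta1, and 1 was higher, the fast skeletal calcium pump gene Atp2a1 (48.4 against 2.79 CPM).

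The Pvalb Myl2 cells were not uniform. Of the 66, 57 had a UMI of Chit1 or Calca (40 of the others), 23 had Chit1, Calca and Cntn2 together (5 of the others), 28 had Shox2 with Cntn2 (13 of the others) and 7 had none of Chit1, Calca and Cntn2. These counts rest on single UMIs and therefore on depth. The 49 cells with both Pvalb and Myl2 and the 13 with Pvalb alone are set side by side. Myl3 was read in 32 of the 49 (787 CPM) and in 1 of the 13 (25.1 CPM). Cckar and Kcna5 were each read in 17 of the 49 and in none of the 13. With 3 counts as the limit of a count of 0, up to 23.1% of such cells could have a UMI, and a cell without one may still express the gene. Tbx20 went the other way, with 11 of 49 cells (29.1 CPM) against 11 of 13 (113 CPM). Shox2 was high in both, at 751 and 497 CPM. Median depths were 18101 and 15213 UMIs. Nppa reached at least 20 UMIs in 6 of the 49 and in 4 of the 13, and its part in these differences was not tested.

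A small set carried atrial natriuretic peptide RNA. Nppa reached at least 20 UMIs in 10 Pvalb Myl2 cells and in 9 of the others, and in the remaining 56 it stood at 16.8 CPM. The 10 cells had Etv1 at 133 CPM against 59.3 CPM in the 56, and Gja5 at 189 against 47.4 CPM. They had little of the other markers: Shox2 at 197 against 806 CPM, Calca at 60.4 against 408 CPM, Chit1 at 8.05 against 402 CPM (2 UMIs in all 10) and GFP at 28.2 against 162 CPM. Cntn2 stood at 4.03 CPM in the 10 (read in 1 cell) and at 69.1 CPM in the 56 (read in 28). Etv1 and Gja5 were thus higher in the 10, and Chit1, Calca, Cntn2 and Shox2 in the 56, although Etv1 was still read in 31 of the 56. Outside the group, the 9 cells with Nppa had Gja5 at 197 CPM and Etv1 at 29.5 CPM. The 95 cells with less Nppa had them at 48.7 and 10.8 CPM, so high Gja5 beside Nppa was not particular to the group. Among cells with little Nppa, Etv1 was still higher in the group (59.3 against 10.8 CPM), while Gja5 was level (47.4 against 48.7 CPM). The median depth was 22659 UMIs in the 10 and 17188 in the 56. Whether the 10 hold RNA of a second cell was not tested, as doublets were not removed.

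A pair of cells had under 0.2% of their UMIs in Myl7, where the median of the group was 2.19% and the lowest other cardiomyocyte had 0.300%. The first had 303 UMIs of Myl2 and 159 of Myl3, 6 of Myl7, 0.436% mitochondrial UMIs and none of Pvalb, Shox2, Chit1, Calca or GFP. The second had 92 UMIs of Pvalb and 523 of Nppa, and none of Myl2, Shox2, Chit1 or Calca. In the GFP-negative library 3 of the 4 cells that met the same cuts were like the first, with 78 to 271 UMIs of Myl2, no Pvalb and 0 to 2 UMIs of Myl7. Without both cells the log2 ratio of Myl3 was 2.16 and that of Mb 1.01.

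The cells also lay together when Pvalb, Myl2 and the 5 cardiomyocyte genes were left out. Among the 10 nearest cardiomyocytes of each cell, in 20 principal components of 1500 variable genes, Pvalb Myl2 cells made up on average 75.2% for a Pvalb Myl2 cell (median 90%) and 15.7% for another cardiomyocyte. They made up 38.5% and 39.1% of all the cardiomyocytes such a cell could have as neighbours. At least 5 of 10 neighbours were of the group for 52 of its 66 cells and for 4 of the other 104. The mean was 79.1% for the 56 cells with little Nppa and 53% for the 10 with Nppa. It was 81.2% for cells with both Pvalb and Myl2 and 53.8% for those with Pvalb alone. In 7 clusters made from the same components, a cluster of 34 cells held the group alone, a cluster of 21 held 17 of its cells and a cluster of 43 held 10; the last 5 cells were spread over 3 others. The genes behind these clusters were measured in the same cells, so this shows how the cells group and is no test of it.

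**Figure D4:**
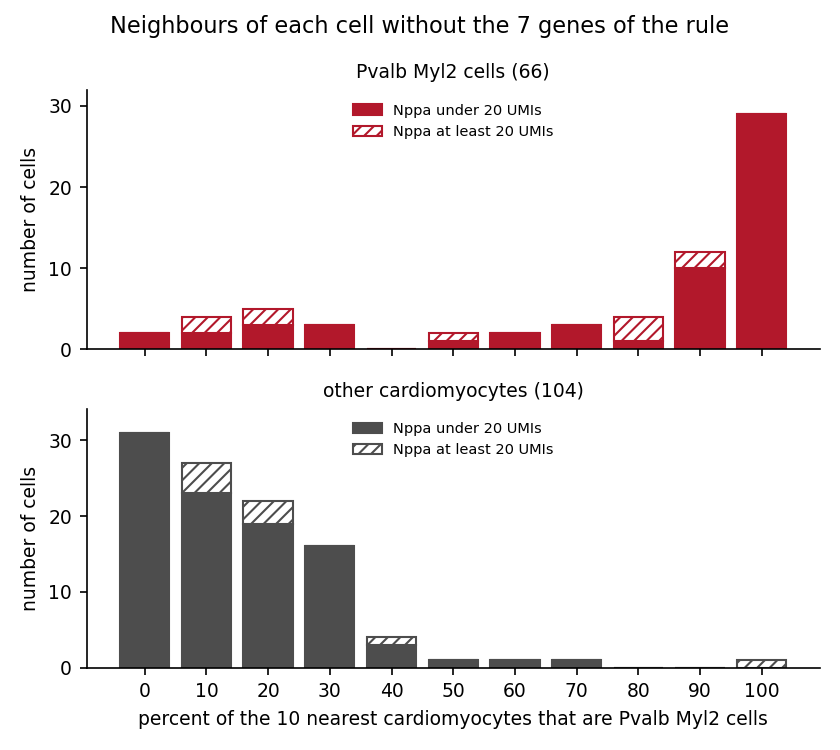
Number of cells (y axis) by the percent of their 10 nearest cardiomyocytes that were Pvalb Myl2 cells (x axis), with the 7 genes that chose the cells left out. The upper panel holds the 66 Pvalb Myl2 cells and the lower the 104 others, and hatched bars have at least 20 UMIs of Nppa. Most of the upper cells lie at 90% or 100%, and most of the lower cells at 30% or less.

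Cardiomyocytes of the other libraries, taken by the same 2% cut, are set side by side because the sorts differ. The GFP-negative library had 66 and RA had 78, with median depths of 12992 and 9877 UMIs. The Pvalb and Myl2 cut was passed by 4 of the 66 and by none of the 78, where a count of 0, put at 3 cells, allows up to 3.85%. GFP itself had 0 UMIs in both. Chit1 and Cntn2 had 0 UMIs in both, Calca had 1 UMI in each, and Shox2 had 6 and 0 UMIs. Etv1 was at 22.1 CPM in GFP-negative and 20.6 CPM in RA cardiomyocytes, above the 10.8 CPM of the GFP-positive others with little Nppa. Myl3 was at 640.4 CPM in GFP-negative and 728 CPM in RA cardiomyocytes, between the 161 CPM of the GFP-positive others and the 826 CPM of the Pvalb Myl2 cells. The Myl2 level of the GFP-negative cardiomyocytes, 675 CPM, came with 6.64 CPM of Pvalb, and RA had 1 UMI of Myl2. Most of the GFP-negative Myl2 and Myl3 UMIs lay in the 4 cells that passed the cut. Those cells had 271, 227, 78 and 28 UMIs of Myl2 and 180, 154, 40 and 2 of Myl3. The 2 GFP-negative levels therefore do not describe the 66 cells as a whole. No Pvalb Myl2 cell shared its barcode with another library, although the GFP-positive library shared 19 barcodes with the GFP-negative and 8 with RA.

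**Figure D5:**
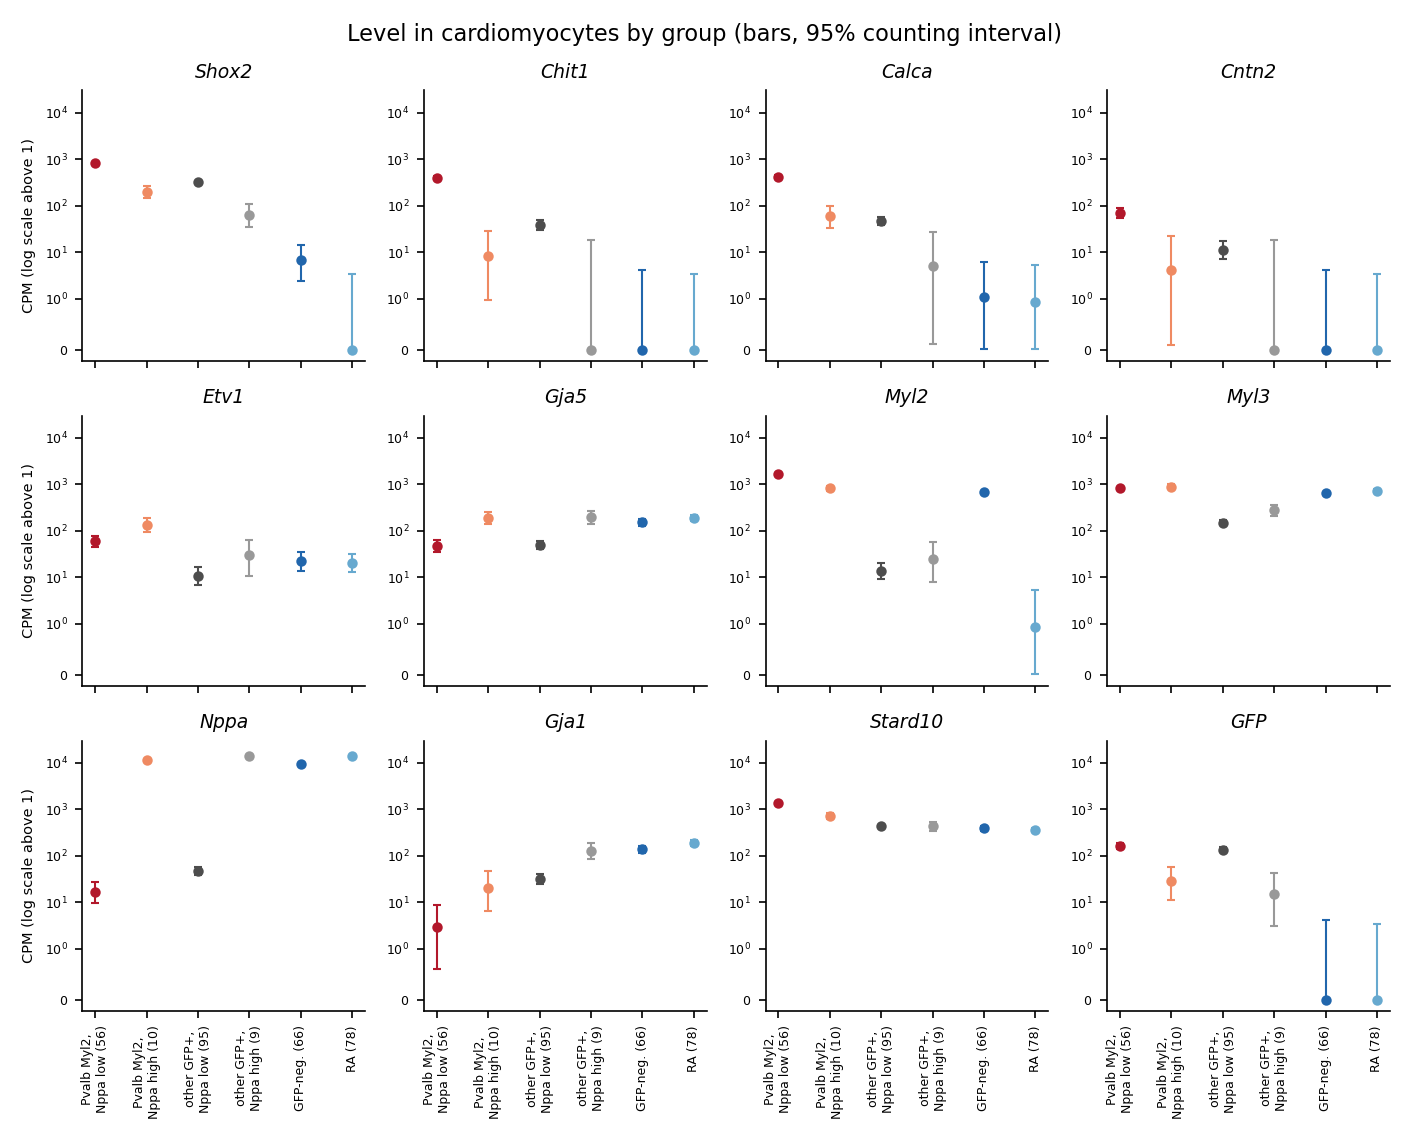
Level of 12 genes in CPM (y axis, linear up to 1 and logarithmic above) in 6 groups of cardiomyocytes, with bars for the 95% counting interval. The number of cells stands in brackets under each group. Chit1, Calca and Cntn2 are highest in the 56 Pvalb Myl2 cells with little Nppa, Etv1 is highest in the 10 with Nppa, and Gja1 is lowest in those 56 cells.

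Of the 66 Pvalb Myl2 cells, 20 were assigned to female and 28 to male animals by Xist and Y-linked RNA, and 18 to neither, against 15, 56 and 33 of the others. Chit1 stood at 309 against 48.7 CPM in female and 299 against 24.7 CPM in male cells, Calca at 278 against 8.59 and 322 against 57.9 CPM, and Shox2 at 632 against 300.5 and 826 against 274 CPM. In each sex these 3 genes were higher in the Pvalb Myl2 cells. The sexes are not replicates, since several animals of a sex may be in the library and cannot be told apart.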

How the data were processed

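For each of the 3 libraries, made with 10x Genomics kits per the labels' protocols, the deposited values were unnormalized UMI counts of genes and reporter features by barcode. Per the submitters' processing notes, reads were processed with Cell Ranger on mm9, and the version is not given in the sources used here. Doublets and free RNA were not removed. The members and the 18 gene lists were chosen with earlier results of these data known, and the lists hold the group's markers Cntn2, Chit1, Calca and Shox2. Counts were summed per group and scaled to CPM with exact Poisson intervals. Ratios had 0.5 UMIs added and exact conditional binomial intervals at 95%, and shares had Clopper-Pearson intervals, while the limit of a count of 0 was put at 3 counts. All cover counting error only, at depths of 5139 to 40054 UMIs per cardiomyocyte. Genes with at least 10 UMIs were measured and called at a log2 ratio of 1, leaving out the 7 genes of the selection. Named genes were the 15 highest and 10 lowest ratios at 50 CPM and 20% of cells, plus from each list its first 4 genes and up to 6 called genes at 20 CPM; genes outside these were named after their values were seen. Endothelial cells had at least 5 UMIs of the 8 endothelial markers and under 0.5% cardiomyocyte UMIs. Cells with at least 3 Xist UMIs and at most 1 Y-linked UMI counted as female, and those with at most 1 and at least 2 as male. The neighbours used scikit-learn 1.9.0 and the clusters scanpy 1.11.5 (resolution 1). The ratio step was tested on simulated data. Some genes of the lists are not reported here. With 1 library per group, no test between conditions was possible.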

Additional observations from a re-analysis of the deposited data

How the results depend on the processing

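Each result was recomputed under 20 settings, of which 4 were chosen after seeing the data (cells with under 20 Nppa UMIs, leaving out the pair of cells low in Myl7, and each sex alone). Of the 97 named genes with a ratio, 35 changed sign under at least 1 setting, 90 times in all over 15 settings. The 59 called genes account for 17 of these changes, in 9 genes, and the other 73 were in genes not called. Chit1, Calca, Cntn2, Etv1 and Shox2 kept their sign, and their log2 ratios ran from 1.07 (Shox2, female cells) to 4.80 (Calca, female cells). The main counts were 66 cells, 338 genes higher, 310 lower, 6 His bundle genes higher, 5 pacemaker genes higher and 3 atrial genes lower. Pvalb alone at 5 UMIs left 3 pacemaker genes. A cardiomyocyte share of 5% left 22 cells, 180 lower genes and 3 His bundle genes. Thinning to 5000 UMIs gave 161 lower genes, 3 pacemaker and 1 atrial gene, and adding 5 UMIs gave 123 lower genes. A minimum of 50 UMIs per gene gave 141 higher and 100 lower genes, 3 His bundle and 1 atrial gene; fewer genes were then tested. The 20 female cells gave 137 lower genes, and the 28 male cells 193 lower genes and 5 atrial genes.

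Signs of called genes turned as follows, on the log2 scale, and the cause was not tested. With Pvalb and Myl2 at 5 UMIs, Bmp10 was 0.41, Cenpf 0.79, Ube2c 0.66, Top2a 0.39 and Ccnb1 0.96, and with Pvalb alone at 5 UMIs they were 0.80, 0.80, 0.62, 0.35 and 0.42. At a cardiomyocyte share of 5%, Postn was 0.0689 and Ube2c 0.17. In female cells Myl3 was -0.20, Tagln 0.70, Ube2c 1.98 and Top2a 2.04, and in male cells Mb was -0.57. Of the genes not called, at 5 UMIs of the pair Mki67 went from -0.69 to 1.4996 and Cdk1 from -0.87 to 0.93, at 20 UMIs Nppb went from 0.98 to -1.74, and with Myl2 alone Nppa went from 0.71 to -0.33 and Gja5 from 0.27 to -0.26. Calls ended without a sign change for Acta2 (-0.12) and Bmp4 (-0.0992) in female cells, among others. No paired analysis was possible because each group had 1 library and no test was made. The depth limits genes under about 10 UMIs, Hcn2, Irx3 and Irx4 among them, and with 1 library neither the spread between animals nor the preparation can be told apart from the groups.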

Other observations

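Some genes outside the comparisons above, chosen after their values were seen, were also higher in the Pvalb Myl2 cells. Dbh, which encodes the enzyme that makes noradrenaline from dopamine, stood at 259 (231 to 288) CPM against 86.4 (74.4 to 99.8) in the other cardiomyocytes and was read in 92.4% against 58.7% of the cells (59.1% and 27.9% when thinned to 5000 UMIs per cell). In the endothelial cells of the library the thinned share of Dbh was 0.350%. Th, the gene of the enzyme of an earlier step, had 1 UMI in the Pvalb Myl2 cells and 16 in the others. Corin, the protease that activates natriuretic peptide, was at 166 against 48.3 CPM, the matrix gene Thbs4 at 89.6 against 25.1 CPM and Cmya5, a gene of striated muscle, at 148 against 45.5 CPM.

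Beside Pvalb, 2 genes best known from fast skeletal muscle were read in the group. Atp2a1 was read in 15 of the 49 cells with both Pvalb and Myl2 (61.3 CPM) and in 1 of the 13 with Pvalb alone (4.18 CPM). Myoz1 was read in 29 of the 49 (70.6 CPM) and in 7 of the 13 (45.9 CPM). The fast troponin genes Tnnt3 and Tnni2 had 1 and 3 UMIs in all 66 cells. The calsequestrin gene of skeletal muscle, Casq1, was at 213 against 189.5 CPM, a log2 ratio of 0.17, interval -0.06 to 0.40, and was not called.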
